A study of Caenorhabditis elegans with 2 samples.

Results

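The 10 genes described here encode general chaperones of the Hsp70, Hsp90 and Hsp40 families of Caenorhabditis elegans: hsp-1, hsp-90, hsp-110, dnj-12, dnj-13 and dnj-19 (constitutive, cytosolic), hsp-3, hsp-4 and hsp-6 (organelle) and hsp-70 (heat-inducible). They were taken by name out of 19973 nuclear protein-coding genes, and all 10 were found in the Ensembl annotation of WBcel235. Chromatin from whole early embryos of strain N2, the wild-type laboratory strain, with male and female embryos pooled, had been immunoprecipitated with an antibody against AMA-1, the largest subunit of RNA polymerase II, and sequenced (ChIP-seq). Both samples are biological replicates of this 1 group, unmutated and untreated as far as the labels say, so no condition could be compared and no test between groups was possible. The deposited data are peak lists on ce11 (the WBcel235 sequence): 30000 peaks for each replicate, 30000 peaks for both replicates pooled, and an optimal list of 724 peaks. The optimal list was made by the irreproducible discovery rate procedure, which weighs how peaks rank in the replicates, and it held the 724 pooled peaks of highest signal.

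Hsp70 proteins bind unfolded stretches of other proteins and release them in a cycle driven by ATP. Hsp40 proteins, also called J-domain proteins, bring clients to Hsp70 and stimulate its ATPase, nucleotide exchange factors reset it, and Hsp90 takes over many clients for their final folding. Cells keep constitutive members at high level for everyday folding, keep separate Hsp70 proteins in the endoplasmic reticulum and the mitochondrion, and switch on further members through heat shock factor HSF-1 under stress.

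A gene's window ran from 500 bp before its Ensembl 5′ end to 500 bp past its 3′ end, and a gene was counted when the summit of a peak, its highest point, lay in the window. Many 5′ ends of worm transcripts are trans-splice sites, not transcription starts, so distances are from annotated ends. Peaks were ranked by the authors' signal value, rank 1 being the highest. The scale of that value is unstated (not given in the sources used here). Signals and ranks were therefore read within a list only, and ranks in lists of different origin show no change. In whole embryos, polymerase on a gene in a few cells and a lower level of it in many cells cannot be told apart.

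A summit of the optimal list lay in the windows of 6 of the 10 chaperone genes, against 3.95% of all protein-coding genes (789 of 19973). These were hsp-1, hsp-90, hsp-110, dnj-12 and dnj-13 among the 6 constitutive genes and hsp-6 among the 3 organelle genes. The heat-inducible hsp-70 had none. Among the 7027 protein-coding genes of 1660 to 3628 bp, the length range of the chaperone genes, 239 had an optimal summit (3.40%). With the upper 2000 pooled peaks the count was 8 chaperone genes, with dnj-19 and hsp-3 added, against 9.17% of all protein-coding genes. With all 30000 pooled peaks it was 9, with hsp-4 added, against 36.8%. Among the 724 highest peaks of each replicate's own list, 5 chaperone genes had a summit in replicate 1 and 5 in replicate 2, against 3.64% and 3.91% of all protein-coding genes in the same lists. The 5 genes were all constitutive in replicate 1, whereas in replicate 2 they were hsp-90, dnj-12, dnj-13, hsp-3 and hsp-6.

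**Figure D1:**
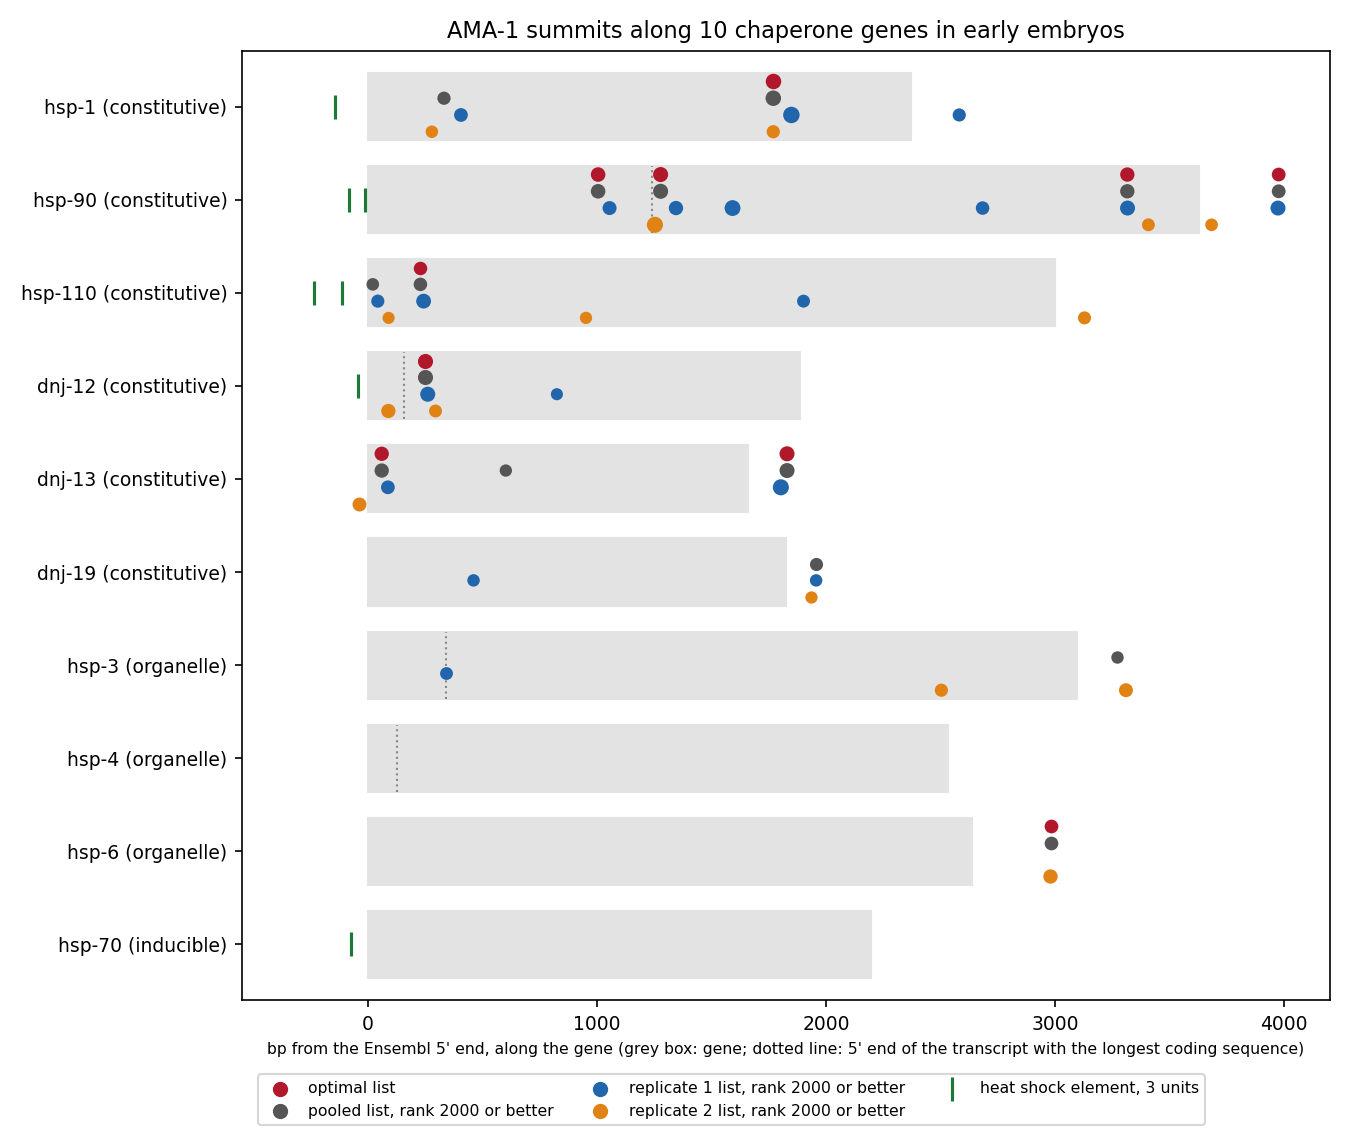
Summits along the 10 chaperone genes, in bp from the Ensembl 5′ end on the horizontal axis, with larger points for better ranks, grey boxes for the genes and green ticks for heat shock elements of 3 units. Of the 10 optimal summits none lies before an Ensembl 5′ end and 3 lie past a 3′ end, and hsp-4 and hsp-70 carry no summit of rank 2000 or better in any list.

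The sequences at the 5′ ends and summits of 5 of these genes are shown because the results below turn on where the summits lie. They were read from the RefSeq genome assembly WBcel235 on the coding strand of each gene. The first set holds the 250 bases before a 5′ end, with capitals for heat shock elements of 3 units (units GAA and TTC in alternation, spaced by 2 bases), the site form that HSF-1 trimers bind. The runs lie before the Ensembl 5′ ends of hsp-1 (chrIV:17278709-17278958, + strand), hsp-90 (chrV:14684668-14684917, + strand) and hsp-110 (chrIII:8446910-8447159, − strand), and before the RefSeq 5′ end of hsp-90 (chrV:14685910-14686159, + strand), which starts 1242 bp further in. The run of hsp-110 and the first run of hsp-90 hold 2 elements each, that of hsp-1 holds 1, and that of the RefSeq 5′ end of hsp-90 holds none. The first run of hsp-90 lies wholly inside C47E8.4, a gene on the opposite strand that overlaps the Ensembl hsp-90 gene.
hsp-1 before the 5′ end: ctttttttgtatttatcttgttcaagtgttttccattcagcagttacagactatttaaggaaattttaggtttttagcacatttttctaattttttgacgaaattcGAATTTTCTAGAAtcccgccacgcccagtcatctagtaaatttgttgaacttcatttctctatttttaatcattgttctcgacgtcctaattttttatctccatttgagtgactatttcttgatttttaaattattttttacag
hsp-90 before the Ensembl 5′ end: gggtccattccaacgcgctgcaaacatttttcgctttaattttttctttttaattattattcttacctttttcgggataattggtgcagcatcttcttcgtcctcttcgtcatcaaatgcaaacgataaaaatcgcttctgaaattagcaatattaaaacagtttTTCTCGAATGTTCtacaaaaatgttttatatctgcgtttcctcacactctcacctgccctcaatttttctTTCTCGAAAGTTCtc
hsp-90 before the RefSeq 5′ end: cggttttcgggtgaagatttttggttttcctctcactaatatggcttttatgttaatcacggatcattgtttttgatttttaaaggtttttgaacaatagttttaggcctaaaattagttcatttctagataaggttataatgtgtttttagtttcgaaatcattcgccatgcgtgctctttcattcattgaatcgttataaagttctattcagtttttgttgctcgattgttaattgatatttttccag
hsp-110 before the 5′ end: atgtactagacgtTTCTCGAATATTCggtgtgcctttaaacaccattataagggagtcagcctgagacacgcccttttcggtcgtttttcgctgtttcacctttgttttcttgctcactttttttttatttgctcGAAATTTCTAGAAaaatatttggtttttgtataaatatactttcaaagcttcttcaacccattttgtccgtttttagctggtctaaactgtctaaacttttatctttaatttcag

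The second set holds 61 bases centred on optimal summits, with the central 11 bases in capitals. They are the summits of hsp-1 at rank 102 (chrIV:17280699-17280759, + strand), hsp-90 at rank 156 (chrV:14686166-14686226, + strand), hsp-110 at rank 634 (chrIII:8446650-8446710, − strand), dnj-13 at rank 313 (chrII:11545731-11545791, + strand) and hsp-6 at rank 529 (chrV:4823749-4823809, − strand). The first 4 lie in coding exons, and the one assigned to hsp-6 lies past its 3′ end.
hsp-1 summit: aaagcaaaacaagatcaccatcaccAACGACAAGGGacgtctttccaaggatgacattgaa
hsp-90 summit: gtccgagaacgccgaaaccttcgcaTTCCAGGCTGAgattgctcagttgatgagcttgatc
hsp-110 summit: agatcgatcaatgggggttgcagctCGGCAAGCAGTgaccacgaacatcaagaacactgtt
dnj-13 summit: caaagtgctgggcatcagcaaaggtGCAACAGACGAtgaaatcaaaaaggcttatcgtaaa
hsp-6 summit: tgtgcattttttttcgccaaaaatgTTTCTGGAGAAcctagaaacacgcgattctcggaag

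The constitutive Hsp70 gene hsp-1 (WBGene00002005, chrIV:17278959-17281330, + strand, 2372 bp) encodes the main cytosolic Hsp70 of the worm. It held the highest summit of the 10 genes, at rank 102 of the optimal list with a signal of 95.85. That summit lay in coding exon 3, 1770 bp from the 5′ end and 453 bp before the stop codon, so it stood far down the gene. The best summit in the window ranked 38 in replicate 1 (signal 75.17) and 786 in replicate 2 (signal 28.66). The replicates thus placed it in very different parts of their lists, and in replicate 2 it fell outside the 724 highest peaks, although the summit there was at the same base as the optimal one. A second pooled summit, at rank 796, lay 332 bp from the 5′ end in coding exon 2, with replicate summits at 406 bp (rank 507) in replicate 1 and 279 bp (rank 1444) in replicate 2. Ordered by best pooled rank, hsp-1 stood at place 111 of all protein-coding genes (upper 0.556%). Of the 31-base words of hsp-1, 96.8% occur once in the genome, so reads from most of the gene could be placed.

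The cytosolic Hsp90 gene hsp-90 (WBGene00000915, chrV:14684918-14688545, + strand, 3628 bp), once known as daf-21, encodes the chaperone that matures kinases and other signalling proteins. It had 4 optimal summits, as 18 of all protein-coding genes did at 4 or more (0.0901%). The best, at rank 156 with a signal of 84.28, lay 1278 bp from the Ensembl 5′ end, which is 36 bp past the RefSeq 5′ end and 32 bp past the coding start. The Ensembl gene begins with a second, longer transcript, so for the main transcript this summit sits at the start of the gene and not in its middle. The next, at rank 244 (signal 71.28), lay 237 bp before the RefSeq 5′ end, within an intron of the longer transcript. It was 438 bp before the 5′ end of C47E8.4. That gene is on the opposite strand and overlaps the start of the Ensembl hsp-90 gene. The other two lay at the far end: rank 300 (signal 66.69) in coding exon 4, 91.4% of the way along the gene, and rank 483 (signal 57.02) 350 bp past the 3′ end. The summit past the 3′ end falls inside a coding exon of C47E8.11, a gene on the same strand that begins 70 bp after hsp-90, and 215 bp before gasr-8. A signal there cannot be assigned to hsp-90 rather than to those genes. The summit at rank 300 lay 382 bp before C47E8.11 and is also in its window. The peaks at ranks 156, 244 and 483 were 398, 191 and 98 bp wide, against a commonest width of 370 bp in the optimal list.

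Both replicates ranked hsp-90 high, at 71 in replicate 1 (signal 58.34) and 55 in replicate 2 (signal 70.57). The replicate 2 summit lay 1253 bp from the Ensembl 5′ end, 25 bp from the optimal one, and the best of replicate 1 lay at 1592 bp. The far summits rested more on replicate 1. The peak overlapping the optimal summit at rank 300 ranked 168 in replicate 1 and 1079 in replicate 2, and that overlapping rank 483 ranked 165 in replicate 1 and 4326 in replicate 2. No replicate 2 peak overlapped the one at rank 244 of the optimal list.

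The gene hsp-110 (WBGene00016250, chrIII:8443910-8446909, − strand, 3000 bp) encodes an Hsp70-like protein that serves as a nucleotide exchange factor for HSP-1. Its optimal summit, at rank 634 with a signal of 52.52, lay 229 bp from the 5′ end in coding exon 2. The best rank in its window was 194 in replicate 1 (signal 45.36) and 925 in replicate 2 (signal 27.24). The summits were in different places: 243 bp from the 5′ end in replicate 1 and 130 bp past the 3′ end in replicate 2, where it is also in the window of ufbp-1. Without the stretch past the gene the best rank in replicate 2 was 1716. The replicate 2 peak that overlaps the optimal one ranked 1904. A lower pooled summit at rank 1344 lay 21 bp from the 5′ end and 465 bp before the divergent gene rpn-3, the proteasome subunit gene next to it. Replicate summits near the 5′ end lay at 43 bp (rank 862) in replicate 1 and 90 bp (rank 1904) in replicate 2.

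The 3 cytosolic J-domain genes differed in rank. dnj-12 (WBGene00001030, chrI:14756904-14758790, + strand, 1887 bp) encodes a class A J-domain protein. Its optimal summit at rank 148 (signal 85.60) lay in coding exon 1, 92 bp past the RefSeq 5′ end and 76 bp past the coding start. The best rank was 156 in replicate 1 (signal 47.51, 261 bp from the Ensembl 5′ end) and 323 in replicate 2 (signal 37.66, at 89 bp). Both replicates therefore held a peak among their upper 724 at the beginning of the Ensembl gene. That of replicate 2 had its summit 70 bp before the RefSeq 5′ end. The replicate 2 summit nearest to the optimal one, 44 bp from it, ranked 1022.

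dnj-13 (WBGene00001031, chrII:11545701-11547360, + strand, 1660 bp) encodes a class B J-domain protein and lies inside an intron of dhgd-1 on the opposite strand. It had 2 optimal summits. That at rank 313 (signal 65.96) lay 60 bp from the 5′ end in coding exon 1. It was matched by rank 512 in replicate 1 and by rank 431 in replicate 2 (summit 37 bp before the 5′ end). That at rank 161 (signal 82.89) lay 171 bp past the 3′ end and 14 bp inside F54D5.7, the next gene on the same strand, which starts 156 bp after dnj-13. It ranked 56 in replicate 1 and 2721 in replicate 2, so the start of dnj-13 was the steadier of its summits and the higher one could not be separated from F54D5.7. A noncoding RNA gene lay within 200 bp of each, F54D5.22 at the start and F54D5.19 past the end.

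dnj-19 (WBGene00001037, chrV:5503033-5504857, − strand, 1825 bp), the third J-domain gene and also of class A, had no optimal summit. Its best pooled summit at rank 868 (signal 47.92) lay 133 bp past the 3′ end, inside a coding exon of the convergent gene T05C3.2. The best rank was 1466 in replicate 1 (signal 25.16) and 1731 in replicate 2 (signal 22.69), both past the 3′ end. Within the gene the best pooled summit ranked 2416, 157 bp from the 5′ end, so dnj-19 stood below the other constitutive genes in all 3 of these lists.

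**Figure D2:**
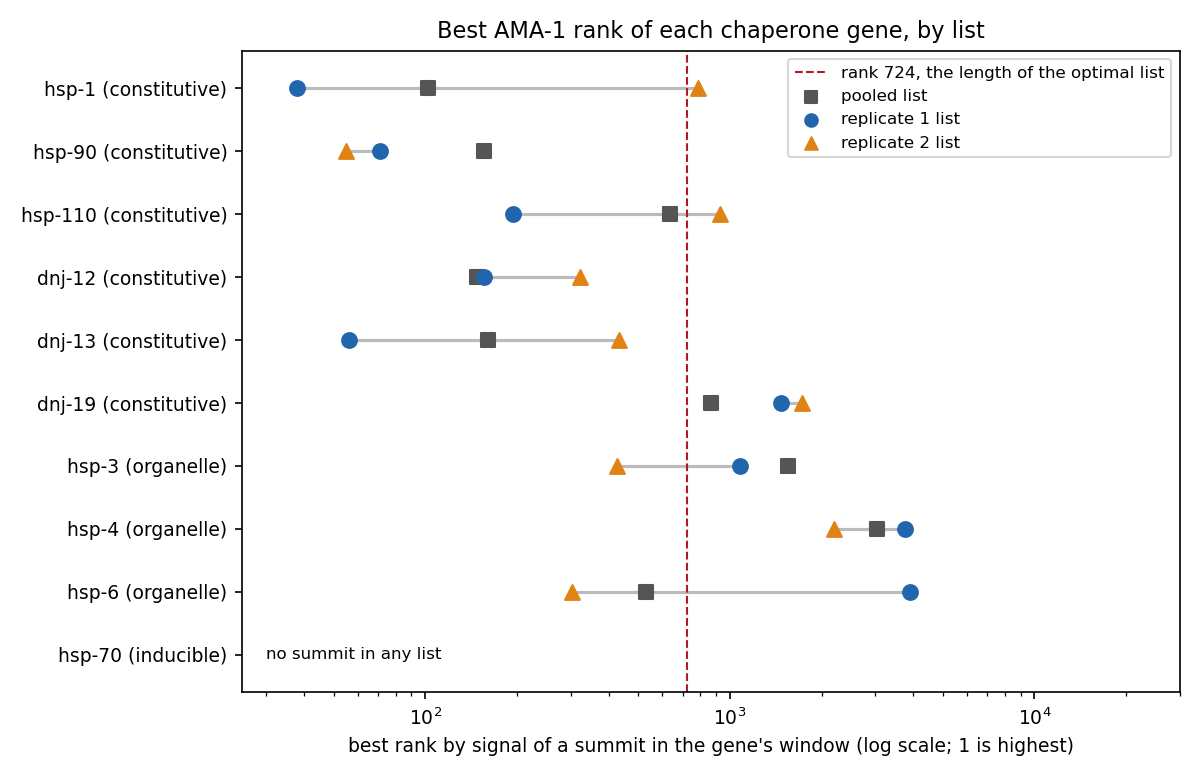
Best rank of any summit in each gene's window in the pooled list and in each replicate's list, on a log scale with rank 1 at the left, and a dashed line at rank 724. Both replicates are left of the line for hsp-90, dnj-12 and dnj-13, and hsp-6 lies on either side of it, at 303 in replicate 2 and 3890 in replicate 1.

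Of the 3 organelle genes, hsp-6 alone had an optimal summit. hsp-3 and hsp-4 encode the Hsp70 proteins of the endoplasmic reticulum, known as BiP in mammals, and hsp-4 is a standard reporter of the unfolded protein response. hsp-3 (WBGene00002007, chrX:6089028-6092124, − strand, 3097 bp) had no optimal summit, and its best pooled one at rank 1549 (signal 39.75) lay 177 bp past the 3′ end. Its best rank was 1083 in replicate 1 (signal 27.57), exactly at the RefSeq 5′ end 339 bp in, and 426 in replicate 2 (signal 34.99), 214 bp past the 3′ end. The replicates thus put the highest polymerase signal of hsp-3 at opposite ends of the gene.

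hsp-4 (WBGene00002008, chrII:7350112-7352645, − strand, 2534 bp) had no summit at rank 2000 or better in any list. Its best pooled summit at rank 3040 (signal 31.82) lay in coding exon 1, 296 bp from the 5′ end. The best rank was 3755 in replicate 1 (signal 18.56), at 2207 bp, and 2196 in replicate 2 (signal 20.99), at 248 bp. Of the 9 chaperone genes with a pooled summit it ranked lowest by window, and still stood at place 2507 of all protein-coding genes (upper 12.6%). Between the gene ends hsp-6 ranked lower, at 7998 in the pooled list.

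hsp-6 (WBGene00002010, chrV:4824124-4826760, − strand, 2637 bp) encodes the mitochondrial Hsp70 that pulls proteins through the inner membrane and is a reporter of the mitochondrial stress response. Its optimal summit at rank 529 (signal 55.66) lay 345 bp past the 3′ end and 356 bp before adss-1, an adenylosuccinate synthetase gene that follows on the same strand. The best rank was 3890 in replicate 1 (signal 18.32) and 303 in replicate 2 (signal 38.47), with summits at 357 bp and 344 bp past the 3′ end. The position was close to the same in both replicates while the place in the list was far apart. Within hsp-6 itself the best pooled rank was 7998, in coding exon 1, so the count of hsp-6 rests on the stretch between it and adss-1.

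hsp-70 (WBGene00002026, chrI:9320325-9322519, − strand, 2195 bp), the heat-inducible cytosolic Hsp70, had no summit in its window in any of the 4 lists. The nearest pooled summit lay 5341 bp past its 3′ end at rank 10832, and the nearest in the replicates lay 6750 bp (replicate 1) and 5359 bp (replicate 2) past it. Of all protein-coding genes 63.2% also had no pooled summit, so an empty window was the commoner state. Of its 31-base words 99.9% occur once in the genome, and no word was shared with any other of the 10 genes. The embryos were not labelled as heat-shocked.

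By class, the best pooled ranks had a median of 158.5 in the constitutive genes (102 to 868, n = 6) and 1549 in the organelle genes (529 to 3040, n = 3). In replicate 1 the medians were 113.5 (38 to 1466) in the constitutive genes and 3755 (1083 to 3890) in the organelle genes. In replicate 2 they were 608.5 (55 to 1731) in the constitutive genes and 426 (303 to 2196) in the organelle genes. The constitutive genes ranked above the organelle genes in the pooled list and in replicate 1, with overlapping ranges, but not in replicate 2, where hsp-3 and hsp-6 both passed hsp-1 and hsp-110. That order of the replicate 2 medians rested on summits past the 3′ ends of hsp-3 and hsp-6. Without the stretch past the gene, the replicate 2 medians were 608.5 (55 to 3390) in the constitutive genes and 2196 (831 to 4416) in the organelle genes. There hsp-3 at 831 still ranked above hsp-110 at 1716 and dnj-19 at 3390. Between the gene ends, the replicate 2 medians were 1251 (55 to 14689) in the constitutive genes and 2196 (831 to 4416) in the organelle genes. Over all genes with a summit the median best rank was 5556 for pooled peaks, 6846 for replicate 1 and 5698 for replicate 2, lower in the lists than every one of the 9 chaperone genes with a summit.

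**Figure D3:**
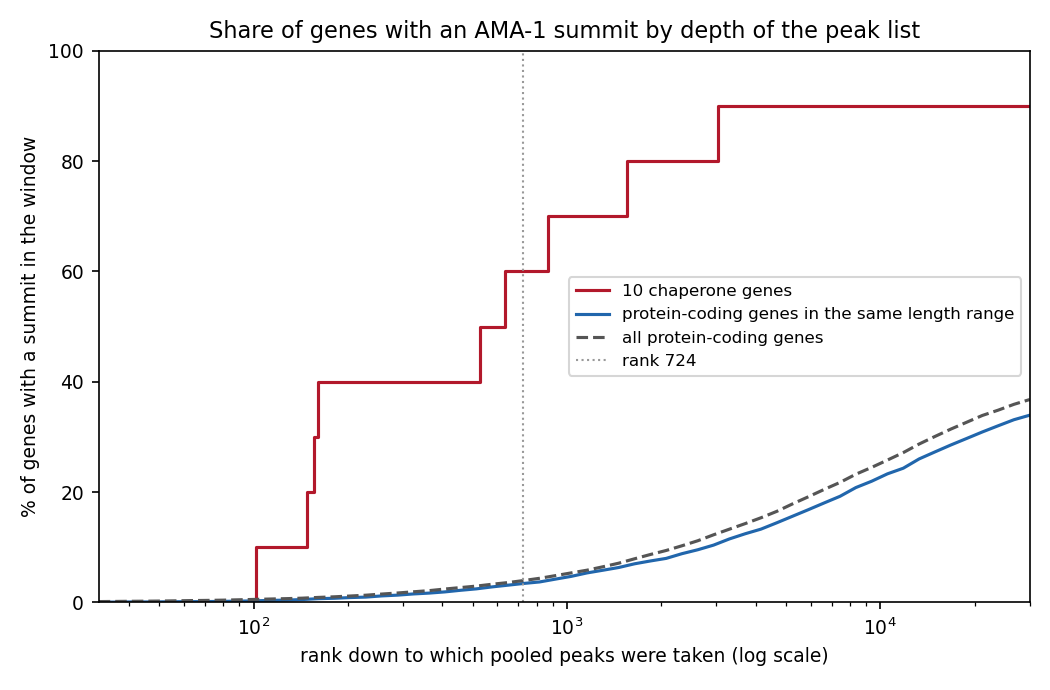
Percent of genes with a summit in their window as the pooled list is taken to lower ranks (log scale), for the 10 chaperone genes, for protein-coding genes of the same length range and for all protein-coding genes. At rank 724 the curve of the chaperone genes stands at 6 of 10, against 3.40% in the same length range and 3.95% of all protein-coding genes, and with the whole list at 9 of 10, against 36.8% of all protein-coding genes.

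The chaperone genes also carried many pooled summits each. Their windows held 53 pooled summits, with a median of 5.5 per gene and a range of 0 in hsp-70 to 10 in hsp-90. Protein-coding genes of the same length range had a median of 0 and at most 10, and 66.1% of them had none. At 2 or more optimal summits stood hsp-90 and dnj-13 among the chaperone genes, against 153 of all protein-coding genes (0.766%).

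Summits were compared along the genes by cutting each gene into 3 equal parts and adding the stretches before and past it. Of the 10 optimal summits of the chaperone genes, 0 lay before the Ensembl 5′ end, 4 in the part nearest the 5′ end, 1 in the middle part, 2 in the part nearest the 3′ end and 3 past the 3′ end. In genes of the same length range, 8.33% of 288 summits lay before the 5′ end, 23.6% in the 5′ part, 5.56% in the middle part, 19.4% in the 3′ part and 43.1% past the 3′ end. The chaperone summits past the 3′ end are those of hsp-90, dnj-13 and hsp-6, and each of them lay in or within 500 bp before the next gene on the same strand. By Ensembl ends the 4 summits of the 5′ part are those at rank 244 of hsp-90, hsp-110, dnj-12 and dnj-13, and hsp-90 at rank 156 is the 1 in the middle part, where the RefSeq end would put it at the start. By the same RefSeq end the summit of hsp-90 at rank 244 would lie before the 5′ end, 237 bp from it. The 2 in the 3′ part are those of hsp-1 and of hsp-90 at rank 300.

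**Figure D4:**
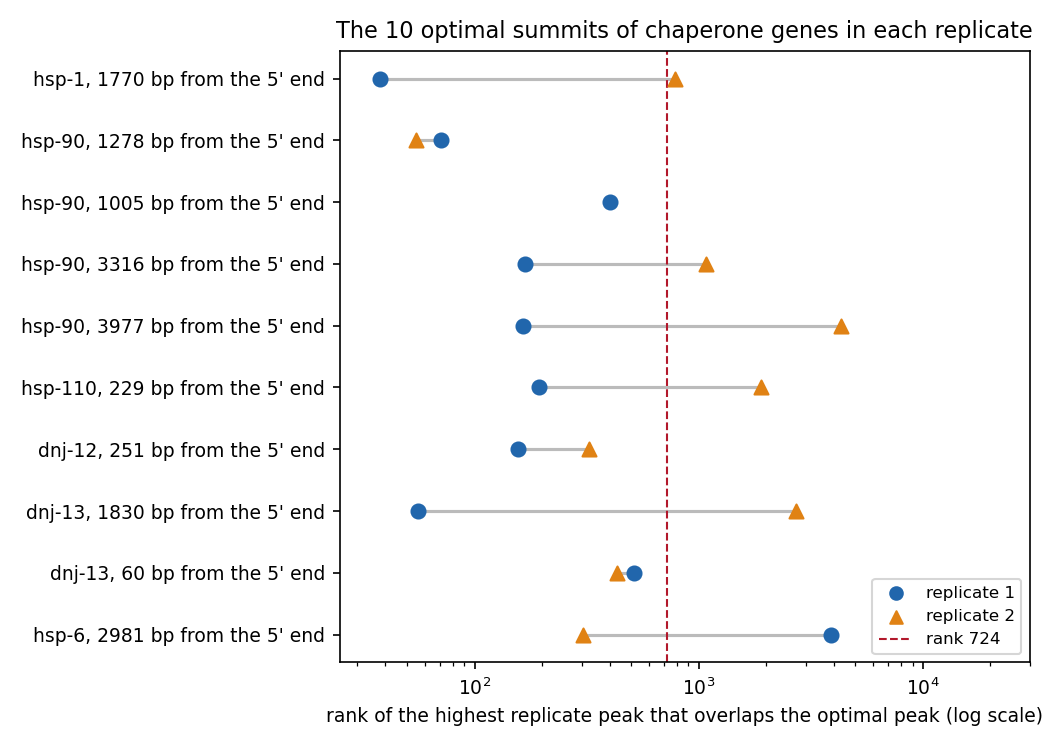
Rank in each replicate of the highest peak that overlaps each of the 10 optimal peaks of the chaperone genes (log scale, dashed line at rank 724). Both replicates are left of the line for hsp-90 at 1278 bp, dnj-12 and dnj-13 at 60 bp, replicate 2 alone for hsp-6, and replicate 1 alone for the other 6.

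Of the 10 optimal peaks, 3 were overlapped by a peak among the upper 724 in both replicates. Their summits are hsp-90 at 1278 bp, dnj-12 at 251 bp and dnj-13 at 60 bp from the Ensembl 5′ end. These 3 optimal summits lie 36 bp, 92 bp and 60 bp past the RefSeq 5′ end. The overlapping replicate 2 peaks had summits 11 bp past that end for hsp-90, but 70 bp before it for dnj-12 and 37 bp before it for dnj-13. For dnj-12 the nearest replicate 2 summit ranked only 1022. The other 7 were overlapped by a peak among the upper 724 of 1 replicate only, 6 of them in replicate 1 and that of hsp-6 in replicate 2. The nearest replicate 1 summits lay 1 to 79 bp from the optimal ones and the nearest replicate 2 summits 0 to 248 bp, the largest distance being that of hsp-90 at 1005 bp. For that one the nearest replicate 2 peak does not overlap the optimal peak and is also the nearest to hsp-90 at 1278 bp. The nearest summit was taken at any rank among the 30000 of each replicate. No such distance was taken for other optimal summits, so whether these are unusually short was not tested.

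Heat shock elements were looked for in the 250 bases before each Ensembl 5′ end, with the 2-unit forms GAANNTTC and TTCNNGAA and the 3-unit form shown above. Each of these forms covers both strands, and every 3-unit match contains 2 overlapping 2-unit matches. A 3-unit element was present in 5 of the 10 chaperone genes, against 1.63% of 19973 promoters (325). They were hsp-1 (starting 144 bp before the 5′ end), hsp-90 (85 and 15 bp), hsp-110 (237 and 115 bp), dnj-12 (45 bp) and hsp-70 (73 bp). The other 5 chaperone genes had none. Both elements of hsp-90 lie inside C47E8.4 on the opposite strand. Of the 5 chaperone genes with the element, 4 had an optimal summit and hsp-70 had none, against 22 of all 325 genes with it (6.77%). The 2-unit forms are common, in 27.1% of all promoters, and dnj-13 and hsp-4 held them without a 3-unit element. With RefSeq 5′ ends, hsp-90 lost its elements and 4 chaperone genes kept one, against 1.61% of 19531 promoters. Under the optimal summits, in 370 bases each, 0 of the 10 chaperone summits and 2.49% of all 724 summits held a 3-unit element. A match describes the letters only, and no match says only that these letters are not in this window.

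The bases CAG stand directly before the annotated 5′ end at 4 of the 10 chaperone genes by Ensembl and at 8 by RefSeq, against 22.1% of Ensembl and 24.1% of RefSeq promoters. CAG is the end of the splice acceptor consensus. It closes the printed runs of hsp-1, hsp-110 and the RefSeq 5′ end of hsp-90, so a distance from those 5′ ends may be a distance from a trans-splice site.

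A wider list of 49 other J-domain, Hsp70 and co-chaperone genes was chosen with earlier results of these data known, and 47 of them matched the annotation. An optimal summit lay in the windows of 3 (6.38%, against 3.95% of all protein-coding genes), and in those of 12 with the upper 2000 pooled peaks, against 9.17% of all protein-coding genes. The J-domain gene dnj-5 ranked 101 in the optimal list, 303 in replicate 1 and 89 in replicate 2, with its summit 142 bp past the 3′ end. F44E5.4, a heat-inducible Hsp70 gene, ranked 389 in the optimal list, 881 in replicate 1 and 441 in replicate 2, with its summit 210 bp past the 3′ end. Only 1.84% of the 31-base words between the gene ends of F44E5.4 occur once in the genome, so most reads from the gene itself cannot be placed. The summit lies outside the stretch counted. Whether reads under it could be placed was not tested, so its value is uncertain. The J-domain gene dnj-15 ranked 697 in the optimal list, with its summit 397 bp past the 3′ end. All 3 summits thus lay past the gene, and those of dnj-5 and dnj-15 were also in the windows of C04A2.15 and tsen-34. Of the 14 co-chaperones and regulators none had an optimal summit, against 3.95% of all protein-coding genes, so with 14 genes this count says little. With the upper 2000 pooled peaks 5 of the 14 had a summit, against 9.17% of all protein-coding genes. None of the 14 lacked a pooled summit, against 63.2% of all protein-coding genes. The gene of the heat shock factor itself, hsf-1, had a best rank of 8469 among pooled peaks, 4029 in the list of replicate 1 and 8071 in that of replicate 2.

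The protein-coding genes whose best ranks were nearest to those of hsp-1 in the pooled list and both replicates, among 6485 genes with all 3 ranks, were arf-1, pqn-27 and E01G4.3. The sum of absolute log2 rank differences was 0.71 for arf-1, with ranks of 117 (pooled), 41 (replicate 1) and 593 (replicate 2). It was 0.76 for pqn-27 and E01G4.3, which share 1 summit and therefore all their ranks.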

How the data were processed

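AMA-1 ChIP-seq of 2 biological replicates, each from its own biosample per the labels, was analysed from the ce11 peak lists; lists on the other build were not used. The deposited score of each peak, the authors' signal value, ranked peaks within a list and entered no test. The aligner, peak caller, threshold of the optimal list and read depth are unstated (not given in the sources used here). The 1 control named in the deposited text notes was not analysed here. Genes came from Ensembl release 115 and sequences from the RefSeq assembly WBcel235. Summits were assigned to windows with Python 3.11.15, pandas 2.3.3 and numpy 2.4.6, and the window code was tested on simulated data. All 10 genes were named, with genes sharing their optimal summits, up to 6 wider-list genes with an optimal summit, hsf-1 and the 3 genes nearest hsp-1 in ranks. The members and lists were chosen with earlier results of these data known. A summit in several windows was counted for each gene. Alternatives were other peak lists, windows, overlap rules, each replicate alone and RefSeq gene ends, the last chosen after seeing the data.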

Additional observations from a re-analysis of the deposited data

How the results depend on the processing

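The count of chaperone genes with a summit was 6, and it was 9 with all 30000 pooled peaks (against 36.8% of all protein-coding genes). In every other alternative run it lay between 4 and 8. It was lowest, at 4, with summits of more than 1 window dropped (against 1.35% of all protein-coding genes) and with the upper 362 optimal peaks (against 2.13%), and highest, at 8, with the upper 2000 pooled peaks (against 9.17%). With replicate 2 alone the constitutive count of 5 fell to 3 and the total of 10 summits fell to 5. The constitutive count was 4 with the upper 362 optimal peaks, with summits of more than 1 window dropped, and with no noncoding gene within 200 bp. It was 6 with the upper 2000 pooled peaks, where the total was 15. Leaving out each replicate in turn gave 5 to 12 summits, 3 to 5 constitutive genes and 0 to 2 organelle genes. When summits in more than 1 window were dropped, 4 summits remained. The organelle count, 1 through hsp-6, was 2 with the upper 2000 pooled peaks. It was 0 with the upper 362 peaks of the optimal list, with windows of 200 bp, with no stretch past the gene, between the gene ends, and when summits in more than 1 window were dropped. Each of those settings leaves out the hsp-6 summit by its construction. The heat-inducible count, which is hsp-70 alone, was 0 throughout. Its nearest summit in any list lay 5341 bp away, beyond every window used, so no setting run could have given another value. RefSeq gene ends, chosen after seeing the data, gave 6 genes and 10 summits. Of 81 best ranks under other windows, 54 were unchanged, 7 changed by no more than 1 SD of the 2 replicates' best ranks (hsp-3 in replicate 2 among them, at 831 against 426) and 20 changed by more. These windows were all narrower than the main one, so a rank had to stay unchanged wherever the best summit lay inside them. The SD is of 2 ranks and is widest where the replicates differ most, so it is a loose yardstick. No paired analysis was possible because the design holds 1 group and no test. Read depth is unknown, so no counting error could be given, and 2 replicates give a range and no test. In the optimal list the farthest summits inside the windows were those of hsp-90 (350 bp) and hsp-6 (345 bp) past the 3′ end, and the nearest outside were 707 bp past dnj-12 (rank 97) and 1020 bp before hsp-1 (rank 705).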

Other observations

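The optimal summit nearest to dnj-12 outside its window, 707 bp past the 3′ end, ranked 97, above every optimal summit inside the windows of the 10 genes. The 370 bases at the 10 chaperone summits had a median GC content of 38.2% (33.2 to 48.1), against 41.1% (27.8 to 59.7) at all 724 optimal summits. Of the other chaperone genes outside the optimal list, the co-chaperone gene daf-41, which encodes the p23 partner of Hsp90, ranked 607 in replicate 1, 3767 in replicate 2 and 2425 in the pooled list. The mitochondrial chaperonin gene hsp-60 ranked 1557 in replicate 1, 2690 in replicate 2 and 4050 in the pooled list. Its best pooled rank was below that of the mitochondrial Hsp70 gene hsp-6, at 529, which is a summit past the 3′ end of hsp-6. In replicate 1 the window of hsp-6 ranked 3890, below that of hsp-60, and in replicate 2 it ranked 303, above that of hsp-60. Between its gene ends hsp-6 ranked 7998 in the pooled list. No rank between gene ends was taken for hsp-60, so that value cannot be set against its window rank. The genes of the Hsp90 partners sti-1 and fkb-6 ranked 1327 and 847 in the pooled list. The J-domain genes dnj-17, dnj-26 and dnj-7 had no summit in any of the 4 lists. In the pooled list 4 of the 47 wider-list genes had no summit, against 63.2% of all protein-coding genes. The genes daf-41, hsp-60, sti-1, fkb-6, dnj-17, dnj-26 and dnj-7 were chosen for naming after their values were seen.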
